A study of Mus musculus with 24 samples.

Results

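A group of 9 genes that pattern the back and belly sides and the outer layer of the limb bud was examined in 7 lists of histone mark peaks: Lmx1b, En1, Sp8, Sp6, Trp63, Dlx5, Dlx6, Msx1 and Msx2. They were grouped by their known roles, and the rule used no measured value, though the choice was made with earlier results of these data known. A peak belonged to a gene when it overlapped the annotated gene body or the 50 kb on either side of it. Dlx5 and Dlx6 are neighbours with overlapping windows, so the 9 genes form 8 separate loci. The windows held 570 of the 368246 peaks in all 7 lists. By where the genes are known to act, 4 were counted as ectodermal (En1, Sp8, Sp6 and Trp63), 1 as mesenchymal (Lmx1b) and 4 as acting in both layers (Dlx5, Dlx6, Msx1 and Msx2).

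Histone marks were mapped by ChIP-seq, chromatin immunoprecipitation followed by sequencing, in whole forelimb buds of mouse embryos at E10.5 with 32 to 35 somites, either WT or Shh-/-, the latter lacking the Hedgehog ligand Sonic hedgehog. The Shh allele is a null allele. By the study's methods the mice were kept on a Swiss Webster background, the WT group also held heterozygous littermates, and the buds of several embryos were pooled. The sample records give 400000 cells for each limb immunoprecipitation. The assay was also run on 1000000 cells of the Hedgehog-responsive mouse fibroblast line NIH3T3 after 48 hours with 400 nM purmorphamine, which activates the pathway, or with the solvent DMSO as control. The labels name LIF in both of these conditions, while the study's methods describe low serum. Of the 24 libraries, 14 were immunoprecipitations, 2 for each of 7 conditions, and 10 were inputs. In the limb, H3K27ac (acetylation at active promoters and enhancers) and H3K4me2 (methylation at promoters and enhancers, acetylated or not) were mapped in both genotypes. H3K27me3, the mark that Polycomb complexes place on silenced genes, is given here in the Shh-/- limb. In NIH3T3 cells the mark was H3K27ac, with another antibody than in the limb. The authors called 1 list of peaks per condition from both replicates together. These lists hold no value for each replicate, so no test between conditions was run here. Every difference below is a difference between 2 lists. A peak called unshared or without a counterpart had no overlapping peak in the other list, which is not a tested difference. The study itself tested WT against Shh-/- on reads in merged peak regions. It reported most H3K27ac regions in both genotypes, a subset reduced or lost in Shh-/-, and H3K4me2 nearly unchanged.

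In the limb bud the dorsal ectoderm makes Wnt7a, which switches on Lmx1b in the mesenchyme beneath it, and the LIM homeodomain factor Lmx1b gives that mesenchyme its dorsal identity. En1, a homeodomain repressor, keeps Wnt7a out of the ventral ectoderm. Sp6 and Sp8 are zinc finger factors of the ectoderm that are needed for the apical ectodermal ridge, the strip of epithelium at the limb tip that secretes FGFs. Trp63 encodes p63, the master regulator of stratified epithelium. Dlx5 and Dlx6 are homeobox genes of the ridge and of early skeletal mesenchyme, and Msx1 and Msx2 are homeobox genes switched on by BMP signals in ridge and mesenchyme alike.

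A whole limb bud is mostly mesenchyme. In such a bulk sample, fewer cells with a mark and less of the mark per cell cannot be told apart. Markers of each cell type were counted, from gene lists chosen with earlier results of these data known. All 10 genes of a limb mesenchyme list, such as Prrx1 and Tbx5, had an H3K27ac peak at a start in both genotypes. Of 13 epithelial genes, 2 had one in WT and 3 in Shh-/-. The share of all protein-coding genes was 43.8% in WT and 40.9% in Shh-/-. Markers of erythroid cells (0 of 4 in both genotypes) and of neural and neural crest cells (0 of 5 in both) had none, while 1 of 5 endothelial genes had one in WT (Cdh5) and another 1 in Shh-/- (Pecam1). Of the muscle precursor markers, 0 of 4 had one in WT and 2 of 4 in Shh-/-, namely Pax3 and Lbx1. The part of these other cell types in the results below was not tested. The lists held between 20830 and 90989 peaks, and the depth of each library cannot be read from them.

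Sequences are shown for the starts whose chromatin is described below. Each is the 250 bases just before the most upstream start in the RefSeq or GENCODE annotation of GRCm38.p6, the assembly that mm10 names. RefSeq promoter sequences were at hand for 5 of the 9 genes (En1, Lmx1b, Msx1, Msx2 and Sp8), which are the ones printed. Capitals mark matches, on either strand, to any of 5 motifs: TAATTA (homeodomain core), GGGCGG (the GC box bound by Sp factors), GACCACCCA (bound by Gli factors), CTTTGAA (bound by TCF and LEF factors) and the p63 motif. En1 lies at chr1:120602168-120602417 (plus strand), Lmx1b at chr2:33641099-33641348 (minus), Msx1 at chr5:37824586-37824835 (minus) and Msx2 at chr13:53473075-53473324 (minus). Sp8 is shown before its first start at chr12:118846079-118846328 (plus) and before a second RefSeq start at chr12:118846983-118847232 (plus).
En1: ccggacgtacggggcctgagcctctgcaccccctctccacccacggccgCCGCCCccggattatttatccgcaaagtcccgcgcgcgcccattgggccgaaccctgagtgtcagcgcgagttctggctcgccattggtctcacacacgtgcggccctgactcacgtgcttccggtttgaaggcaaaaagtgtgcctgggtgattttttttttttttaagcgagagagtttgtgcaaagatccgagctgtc
Lmx1b: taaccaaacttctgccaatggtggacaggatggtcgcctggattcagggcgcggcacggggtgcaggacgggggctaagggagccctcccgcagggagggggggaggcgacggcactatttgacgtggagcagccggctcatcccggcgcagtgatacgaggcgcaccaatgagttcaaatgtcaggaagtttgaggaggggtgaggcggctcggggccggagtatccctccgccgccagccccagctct
Msx1: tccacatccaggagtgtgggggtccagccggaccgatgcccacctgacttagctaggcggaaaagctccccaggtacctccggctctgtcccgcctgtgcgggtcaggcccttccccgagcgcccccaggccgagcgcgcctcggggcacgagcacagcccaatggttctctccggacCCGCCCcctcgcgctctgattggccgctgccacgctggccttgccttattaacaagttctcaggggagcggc
Msx2: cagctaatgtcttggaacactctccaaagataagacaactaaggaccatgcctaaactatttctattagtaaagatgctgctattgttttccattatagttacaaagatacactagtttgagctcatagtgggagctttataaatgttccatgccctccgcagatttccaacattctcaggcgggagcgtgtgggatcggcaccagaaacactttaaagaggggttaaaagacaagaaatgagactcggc
Sp8 first start: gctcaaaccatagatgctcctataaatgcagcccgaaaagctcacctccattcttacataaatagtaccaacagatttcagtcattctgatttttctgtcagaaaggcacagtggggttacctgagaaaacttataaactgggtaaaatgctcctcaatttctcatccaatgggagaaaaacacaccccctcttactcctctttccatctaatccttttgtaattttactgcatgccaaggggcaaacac
Sp8 second start: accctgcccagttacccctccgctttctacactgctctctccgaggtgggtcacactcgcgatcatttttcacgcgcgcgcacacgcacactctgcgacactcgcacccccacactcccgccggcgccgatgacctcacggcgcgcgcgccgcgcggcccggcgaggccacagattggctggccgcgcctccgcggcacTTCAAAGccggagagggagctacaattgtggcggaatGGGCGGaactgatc
The GC box was the motif met most often, at 1 place each in the En1, Msx1 and second Sp8 sequences, and 32.7% of all 32851 RefSeq promoters of this length hold it. CTTTGAA was present at the second Sp8 start and in 4.46% of all promoters. The other 3 motifs were in none of the 6 sequences, and they are found in 4.84% (TAATTA), 0.225% (GACCACCCA) and 0.490% (p63 motif) of promoters. The Sp8 starts differed from each other in makeup. The first has 1 CpG and 40.8% GC, the second 32 CpGs and 67.2% GC, against medians of 6.00 CpGs and 52.4% GC over all promoters. Matches are letters only and say nothing of binding.

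A further 3 sequences are shown because they lie in acetylated regions far from a start, more than 10 kb away. They are the central 200 bases of the best-ranked such WT H3K27ac peaks, read from the plus strand. For Lmx1b they are the best peak shared between genotypes, in an intron at chr2:33592525-33592724, and the best WT-only peak, between genes at chr2:33543925-33544124. For Msx1 the shared peak at chr5:37857700-37857899, upstream of the gene, is given.
Lmx1b shared peak: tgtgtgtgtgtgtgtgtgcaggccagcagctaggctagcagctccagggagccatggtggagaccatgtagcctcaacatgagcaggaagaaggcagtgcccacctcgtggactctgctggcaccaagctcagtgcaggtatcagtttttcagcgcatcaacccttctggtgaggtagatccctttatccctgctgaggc
Lmx1b WT-only peak: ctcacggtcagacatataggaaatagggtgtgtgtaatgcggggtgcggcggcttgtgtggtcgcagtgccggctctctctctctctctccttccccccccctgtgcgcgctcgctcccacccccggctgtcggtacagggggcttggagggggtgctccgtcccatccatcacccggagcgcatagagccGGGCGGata
Msx1 shared peak: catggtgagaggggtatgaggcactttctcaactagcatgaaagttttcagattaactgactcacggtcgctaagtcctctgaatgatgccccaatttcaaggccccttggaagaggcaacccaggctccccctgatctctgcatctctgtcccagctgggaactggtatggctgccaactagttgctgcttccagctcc
The Lmx1b WT-only peak held 1 GC box, and the others held none of the motifs. Over the 54 WT H3K27ac peaks of all 8 loci, the GC box was in the central 200 bases of 20.4%, against 12.1% of the whole list. TAATTA was in 7.41% against 5.69%, and CTTTGAA in 3.70% against 5.05%. GACCACCCA and the p63 motif were in 0 of the 54, which allows a share of up to 5.56%, and in 0.173% and 0.366% of the whole list.

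H3K27ac at a start was found at genes of the mesenchyme or of both layers, and H3K27me3 at genes of every layer. The mesenchymal layer is 1 gene, Lmx1b, and the genes of both layers differed among themselves. A start was called marked when a peak lay between 2 kb before and 1 kb after it. Lmx1b, Msx1 and Msx2 carried H3K27ac in WT limb buds (3 of 9, beside 43.8% of all 21938 protein-coding genes), and the same genes and Dlx5 did in Shh-/- buds (4 of 9, beside 40.9%). No ectodermal gene was acetylated at a start in either genotype. H3K4me2 was present at 8 of the 9 in both genotypes, every gene but Trp63, where the background was 64.0% in WT and 63.5% in Shh-/-. H3K27me3 lay at 6 of the 9 in the Shh-/- limb, namely En1, Sp8, Sp6, Dlx5, Dlx6 and Lmx1b, beside 13.3% of all genes. En1, Sp8, Sp6 and Dlx6 thus had H3K4me2 with H3K27me3 and no H3K27ac in the Shh-/- limb, a combination of 9.48% of all genes. Lmx1b and Dlx5 had all 3 marks, as 2.01% of all genes did. With no replicate lists, these counts carry no error of their own.

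**Figure D1:**
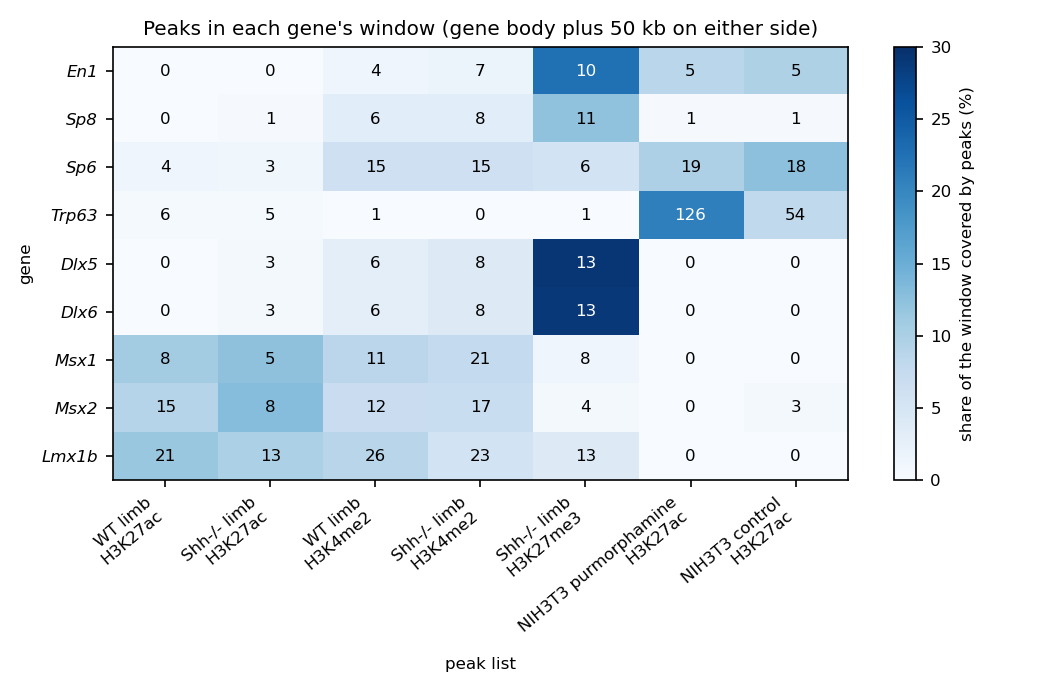
Number of peaks (figures in the cells) in the window of each of the 9 genes in each of the 7 lists, with the share of the window covered by peaks in % as the colour. Acetylation in the limb is dense at Msx1, Msx2 and Lmx1b, H3K27me3 covers up to 29.2% of a window at En1, Sp8, Dlx5 and Dlx6, and NIH3T3 acetylation is dense at Trp63, with 126 and 54 peaks.

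Lmx1b (chr2:33560965-33640511, minus strand) had the greatest length covered by H3K27ac of the 9 genes in the limb lists. WT limb buds had 21 H3K27ac peaks covering 20.6 kb of the 180 kb window, and Shh-/- buds 13 peaks covering 17.8 kb. A window covered to this degree or more (11.5% in WT) was found for 0.834% of all protein-coding genes. Its window is wider than the 104 and 106 kb windows of Msx1 and Msx2. By share of the window Lmx1b came before Msx1 and Msx2 in WT buds (11.5% against 10.7% and 8.99%) and after both in Shh-/- buds (9.89% against 12.4% and 13.0%). Most of this acetylation was a block on both sides of the start. The strongest WT peak, chr2:33641100-33646299, had rank 1630 of 49679 and a largest log2 ratio of ChIP to input of 5.55. The strongest Shh-/- peak, chr2:33634650-33640699, had rank 389 of 43916 and a log2 ratio of 6.02. Of the acetylated bases 15900 were common to both lists, 4750 were in the WT list only and 1850 in the Shh-/- list only.

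The WT-only bases of Lmx1b lay mainly away from the start. Of its 21 WT peaks 12 had no counterpart in Shh-/- buds (beside 48.5% of the whole WT list), against 4 of 13 Shh-/- peaks without a counterpart in WT (beside 38.4% of the whole Shh-/- list). The best-ranked WT-only peaks were chr2:33543850-33544199 and chr2:33544500-33544949, with ranks 11070 and 13654. These lie between genes past the 3' end, the nearest coding start is that of Zbtb43, and an H3K27me3 peak of the Shh-/- limb overlaps both. H3K4me2 was present there in both genotypes. Another run of 4 WT-only peaks lay in an intron 46.3 to 49.0 kb into the gene, beside a peak shared with Shh-/- buds at chr2:33592300-33592949. A pair lay upstream at chr2:33683050-33683299 and chr2:33683400-33683699, at -42.7 and -43.0 kb from the start, negative values being upstream. These 8 peaks stood between the top 22.3% and the top 87.8% of the WT list, with log2 ratios of 2.59 to 3.87.

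Lmx1b also carried H3K27me3 in the Shh-/- limb, with 13 peaks covering 7050 bp. Of these bases 4800 were acetylated in the same limb list. The best H3K27me3 peak, chr2:33643600-33644849, had rank 1579 of 20830, and 1 peak, chr2:33639500-33640699, lay across the GENCODE start. Whether the marks sat on the same cells was not tested in these bulk samples. H3K4me2 lay on the same block, with 26 WT peaks covering 15.7 kb and 23 Shh-/- peaks covering 10.1 kb. Its best peak was chr2:33635800-33637049 in WT (rank 1499 of 36585) and chr2:33616350-33617099, 23.8 kb into the gene, in Shh-/- (rank 3044 of 38468). The best Shh-/- only H3K27ac peak of Lmx1b, chr2:33646450-33646649, lay just past the upstream edge of the block (rank 15102).

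Msx1 and Msx2, both BMP-responsive homeobox genes, had fewer but wider H3K27ac peaks in the Shh-/- list. Msx1 (chr5:37820485-37824583, minus strand) had 8 WT peaks covering 11.2 kb and 5 Shh-/- peaks covering 12.9 kb. Msx2 (chr13:53466884-53473074, minus strand) had 15 WT peaks covering 9.55 kb and 8 Shh-/- peaks covering 13.8 kb. Over all chromosomes the covered length was the other way round, 23.2 Mb in the WT list and 19.7 Mb in the Shh-/- list. At Msx2, 4600 acetylated bases were in the Shh-/- list only and 350 in the WT list only, and at Msx1 the values were 2400 and 650. Counts of peaks and covered length therefore point in opposite directions at both genes. Of the WT peaks, 2 of 8 at Msx1 and 1 of 15 at Msx2 had no Shh-/- counterpart, beside 48.5% of the whole WT list.

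The acetylated blocks of the Msx genes sat on the gene and its flanks. At Msx1 they ran from 37817100 to 37829599 in WT buds, with a single peak far upstream at chr5:37857600-37857999 (-33.2 kb) that was shared with the Shh-/- peak chr5:37857450-37857749. That distal peak had rank 10622 in WT (top 21.4%) and 7242 in Shh-/- (top 16.5%). At Msx2 the WT peaks lay between 53461850 and 53476999. H3K27me3 was sparse at both genes in the Shh-/- limb, with 8 narrow peaks covering 1450 bp at Msx1 and 4 covering 650 bp at Msx2, none of them at a start. The best of these had ranks of 10780 and 9823 of 20830, the middle of the list. Of that list 47.2% had a false discovery rate under 0.05, and the best H3K27me3 peak of Msx1 had 0.0651. H3K4me2 covered 8.90 kb in WT and 7.95 kb in Shh-/- at Msx1, and 7.30 and 7.35 kb at Msx2. Its best Msx1 peaks had ranks of 2654 and 3654, and its best Msx2 peaks ranks of 10959 and 2431. The best WT-only peaks were chr5:37783950-37784099 at Msx1 (rank 23729) and chr13:53474350-53474449 at Msx2 (rank 37306). The best Shh-/- only peaks were chr5:37770700-37771349, nearest to Cytl1 (rank 28572), and chr13:53468550-53469499 within Msx2 (rank 8819).

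**Figure D2:**
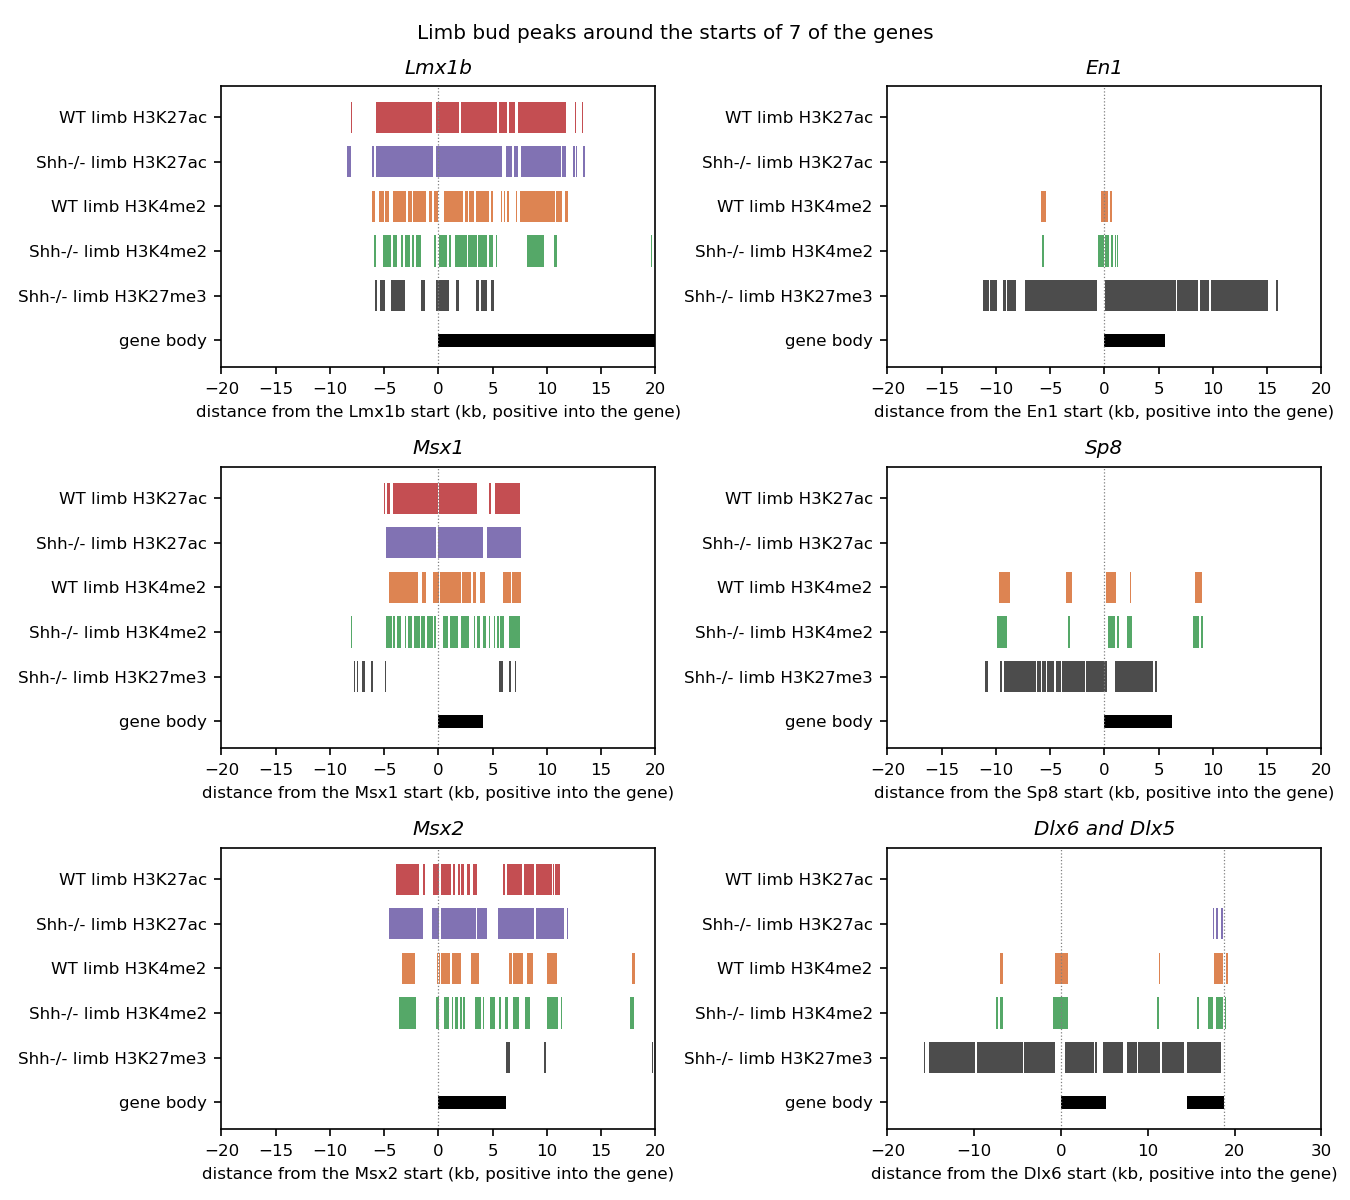
Peaks of the 5 limb lists around the starts of Lmx1b, Msx1, Msx2, En1, Sp8 and the Dlx6 and Dlx5 pair, as distance from the start in kb with the gene body in black and dotted lines at the starts. Acetylated blocks in both genotypes flank the starts of Lmx1b, Msx1 and Msx2, while H3K27me3 flanks H3K4me2 peaks at En1, Sp8 and Dlx6.

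The best H3K27ac peak at the start of all 3 genes was placed higher in the Shh-/- list than in the WT list. Lmx1b was in the top 3.28% of WT peaks and the top 0.886% of Shh-/- peaks, Msx1 in the top 5.77% and 1.52%, and Msx2 in the top 8.23% and 1.65%. The background is that 37.9% of 8526 protein-coding genes with a peak in both lists were better placed in the Shh-/- list. The log2 ratio to input was higher in Shh-/- by 0.47 at Lmx1b, 0.63 at Msx1 and 0.89 at Msx2, against a median difference of -0.35 over those genes. Differences as high as these were found at 11.7%, 7.71% and 3.58% of the genes. The best peaks of the 2 lists overlapped at Msx1 but not at Lmx1b or Msx2. At Lmx1b and Msx2 the best WT peak lay upstream of the start and the best Shh-/- peak in the gene, and the sign of the difference in log2 ratio depended on the side. Upstream of Lmx1b the log2 ratio was 5.55 in WT (chr2:33641100-33646299, top 3.28%) and 4.90 in Shh-/- (chr2:33641000-33646249, top 5.92%). Within Lmx1b the Shh-/- peak at 6.02 overlapped 3 WT peaks, the highest at 5.47. Upstream of Msx2 the values were 4.82 in WT (chr13:53474850-53476999, top 8.23%) and 4.68 in Shh-/- (chr13:53474500-53477599, top 7.83%). Within Msx2 the Shh-/- peak at 5.71 overlapped WT peaks of at most 4.58. The ratios come from separate calls with separate inputs, so a shift between lists as a whole is part of each value.

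**Figure D3:**
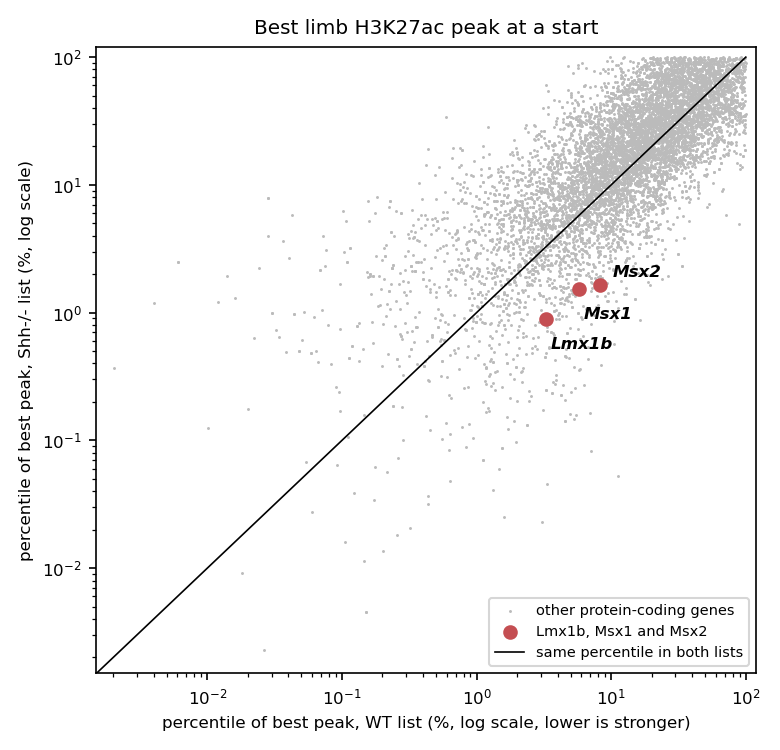
Percentile of the best H3K27ac peak at each gene's start in the WT list (x axis, %, log scale) and in the Shh-/- list (y axis, %, log scale), where lower is stronger, for 8526 protein-coding genes (grey) with Lmx1b, Msx1 and Msx2 in red. The best peaks of a gene can lie at different places in the 2 lists, and all 3 genes lie below the line of equal percentile, between 0.886% and 1.65% in the Shh-/- list.

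H3K4me2, compared in the same way by the best peak at a start, gave no common direction. Sp8 was placed higher in the Shh-/- list (top 42.5% in WT, top 13.7% in Shh-/-), as were Sp6 and Lmx1b by smaller steps. Dlx5 (13.2% and 39.9%), Dlx6 (16.9% and 34.7%), Msx2 (35.5% and 58.4%), Msx1 (7.25% and 9.49%) and En1 (9.61% and 10.4%) were placed higher in the WT list. Of all genes with such a peak in both lists, 50.0% were better placed in Shh-/-. The largest difference in log2 ratio was 0.75 at Sp8, and 11.9% of genes had one as high.

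En1 (chr1:120602418-120607992, plus strand), the ventral ectoderm repressor, had no H3K27ac peak in its 106 kb window in either genotype. A window with no WT H3K27ac peak was found for 24.3% of protein-coding genes, and En1, Sp8, Dlx5 and Dlx6 were of this kind. H3K27me3 covered 23.9 kb of the En1 window in 10 peaks, 22.6% of it, and 0.337% of genes were covered as much. The peak chr1:120602500-120608999, which spans the gene body, had rank 76 of 20830 and a log2 ratio of 4.96. Between this peak and the next one upstream, chr1:120595100-120601749, lay a gap of under 1 kb at the start, and the strongest H3K4me2 peaks of En1 sat there: chr1:120602100-120602749 in WT buds (rank 3520) and chr1:120601850-120602349 in Shh-/- buds (rank 3995). The WT peak holds all of the 250 bases printed for En1, and the Shh-/- peak part of them.

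Sp8 (chr12:118846329-118852576, plus strand) had the same arrangement with less H3K27me3, 13.1 kb in 11 peaks. The best of them, chr12:118847300-118850799 over the gene, had rank 178, and 1.30% of genes were covered as much. The next H3K27me3 peak upstream was chr12:118844600-118846599. H3K4me2 lay in the gap between them, at chr12:118846450-118847399 in WT and chr12:118846700-118847299 in Shh-/- buds. This gap holds the second, CpG-rich sequence printed for Sp8. All 6 WT H3K4me2 peaks of the window were shared with Shh-/- buds, including those at -9.2 and 8.6 kb, and 1 of 8 Shh-/- peaks was not. Over the whole H3K4me2 lists 25.7% of WT and 22.5% of Shh-/- peaks were unshared. The only H3K27ac peak was a Shh-/- peak between genes at chr12:118802950-118803299 (-43.2 kb, rank 19090), with no WT counterpart.

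Sp6 (chr11:97013394-97024734, plus strand) sits among other genes. Its window holds Sp2, Scrn2, Lrrc46, Mrpl10 and Osbpl7, and all 4 WT and 3 Shh-/- H3K27ac peaks there were nearest to a start of another gene, the strongest at Sp2 (rank 3979 in WT and 499 in Shh-/-). Nearest to Sp6 itself were 4 H3K4me2 peaks in each genotype and 6 H3K27me3 peaks. H3K27me3 covered 6.15 kb, with the widest peak at chr11:97017350-97022099 over the inner of its starts (97018733). H3K4me2 at that start was of middle rank in both genotypes, 14094 in WT and 13015 in Shh-/-. Of the Sp6 starts this was the one marked in the limb lists.

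Trp63 (chr16:25683763-25892102, plus strand) had almost no H3K4me2 or H3K27me3. Its 308 kb window held 1 H3K4me2 peak of 100 bp in WT (rank 35077), 0 in Shh-/- and 1 H3K27me3 peak of 100 bp (rank 19247). There were 6 WT and 5 Shh-/- H3K27ac peaks, none at an annotated start and none overlapping H3K4me2, covering 1.35 and 1.40 kb. The best formed a cluster late in the gene, at chr16:25877600-25878099 in WT (rank 13367, log2 ratio 3.68) and chr16:25877850-25878249 in Shh-/- (rank 8729, log2 ratio 3.85), 75.9 and 76.1 kb past the inner start at 25801916 from which the ΔN form is read. A weak peak shared between the genotypes lay at -2.9 kb from the first start, with ranks of 39387 in WT and 24313 in Shh-/-. The best unshared peaks were chr16:25746600-25746799 in WT (rank 31365) and chr16:25876700-25876949 in Shh-/- (rank 27667).

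Dlx5 (chr6:6877805-6882085, minus strand) and Dlx6 (chr6:6863334-6868568, plus strand) had the greatest length covered by H3K27me3 in the group. In all 30500 bp in 13 peaks were covered, 29.2% of the Dlx5 window, and 0.173% of genes were covered as much. The blocks ran from 6847500 to 6881749, with a gap of over 1 kb at the Dlx6 start in which H3K4me2 lay in both genotypes (chr6:6862600-6864199 in WT, rank 6193, and chr6:6862450-6864099 in Shh-/-, rank 13369). WT buds had 0 H3K27ac peaks here. Shh-/- buds had 3, at chr6:6880850-6880949, chr6:6881200-6881449 and chr6:6881800-6882049, all within 1.2 kb of the Dlx5 start. None of the 3 had a WT counterpart, beside 38.4% of the whole Shh-/- list without one. The best had rank 9227 of 43916 and a log2 ratio of 3.79, and the 3 together covered 600 bp, of which 350 also lay in H3K27me3 peaks.

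Genes of the same layers that are not in the group were counted in the same way. Of 13 epithelial genes (keratins, cell adhesion genes and epithelial factors), 11 had H3K4me2 at a start in WT and 10 in Shh-/-, and 11 had H3K27me3. The combination of H3K4me2 and H3K27me3 without H3K27ac in the Shh-/- limb was found at 7 of them: Cdh1 (E-cadherin), Epcam, Krt8, Krt18, Esrp1, Perp and Ovol1. Krt5 and Krt14, keratins of basal epidermis, had none of the 3 marks in the limb. Acetylated in WT were Tfap2a and Tfap2c, AP-2 factors that mesenchyme and neural crest use too, and Grhl2 joined them in Shh-/-. None of the 10 mesenchyme genes had the combination, since all were acetylated, but 6 of them had H3K27me3 at a start too (Prrx1, Tbx5, Twist1, Lhx2, Lhx9 and Pdgfra). The combination was also found at 4 of 5 neural and neural crest genes.

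Of 16 genes of ridge and dorsoventral signalling, 6 were acetylated at a start in WT (Bmp4, Bmp7, Bmpr1a, Fgfr2, Lef1 and Ctnnb1) and the same 6 with Dkk1 in Shh-/-. H3K27me3 lay at 11 of the 16, and the combination was found at 6 (Fgf8, Fgf4, Fgf9, Wnt3, Bmp2 and Jag2). Fgf17 and Wnt7a, the dorsal signal, had H3K27me3 with neither of the other marks in Shh-/- buds. Fgfr2, Lef1 and Dkk1 had H3K27me3 and H3K27ac there, Bmp4, Bmp7, Bmpr1a and Ctnnb1 had H3K27ac without H3K27me3, and Rspo2 had H3K4me2 alone. H3K4me2 at Fgf17 and Wnt7a was in the WT list only. Of 12 paralogs of the 9 genes, such as Lmx1a, En2, Sp5, Sp9, Dlx1 and Msx3, 1 was acetylated in either genotype (Trp53), all 12 had H3K4me2, 10 had H3K27me3 and the same 10 had the combination. These lists were put together by known function with earlier results of these data in view.

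**Figure D4:**
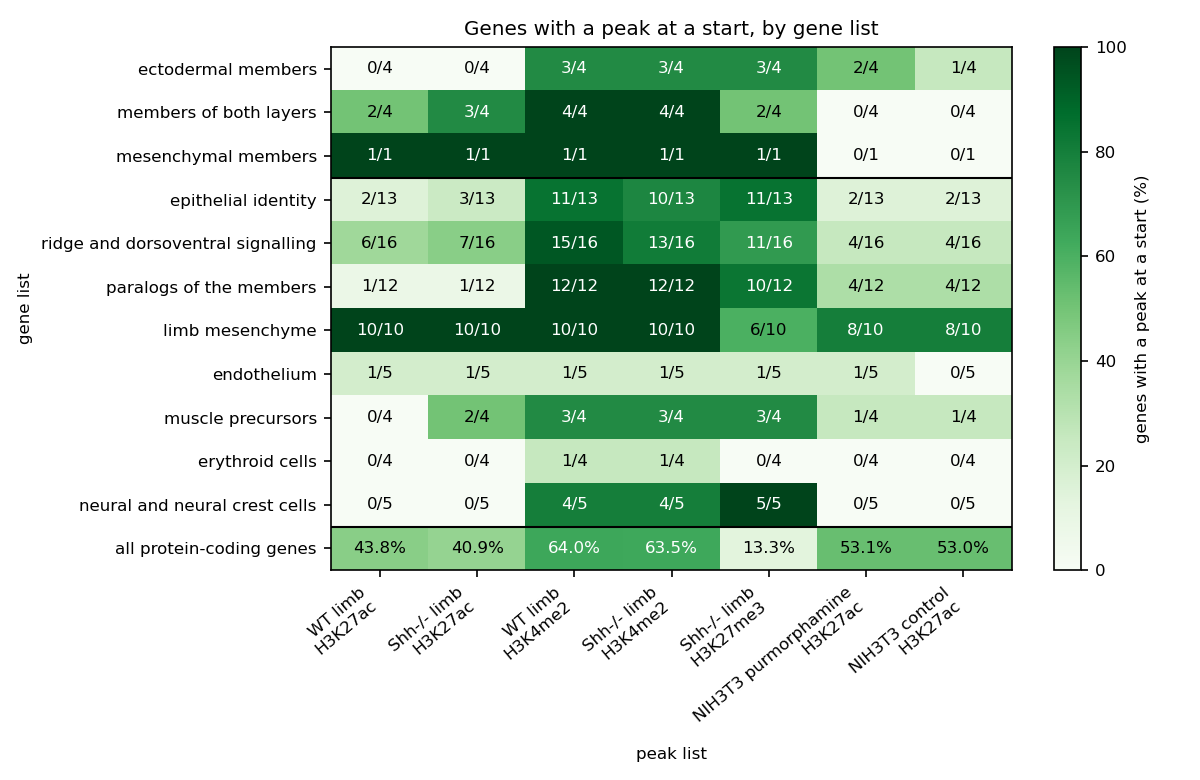
Number of genes with a peak at a start out of the genes in each list (text in the cells) and the same in % (colour) for the 7 peak lists, where "members" are the 9 genes by layer. The bottom line gives all protein-coding genes, and limb mesenchyme genes (10 of 10 acetylated) stand opposite to the epithelial genes (2 of 13 in WT).

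Pooled over the 8 loci, the limb peaks of H3K27ac and H3K4me2 were compared with their whole lists. Of WT H3K27ac peaks, 20 of 54 had no Shh-/- counterpart, 37.0% (95% Wilson interval 25.4 to 50.4%) beside 48.5% of the whole list and 42.7% of peaks in the same score deciles. Of Shh-/- H3K27ac peaks, 14 of 38 had no WT counterpart, 36.8% (23.4 to 52.7%) beside 38.4% of the whole list and 26.2% in the same score deciles. For H3K4me2, 18 of 81 WT peaks were WT-only, 22.2% (14.5 to 32.4%) beside 25.7%. In the Shh-/- list 26 of 99 were unshared, 26.3% (18.6 to 35.7%) beside 22.5%. All 4 intervals hold the share of the whole list, but for WT H3K27ac this rests on Lmx1b, which gave 12 of the 20 WT-only peaks. Without Lmx1b 8 of 33 were WT-only, 24.2% (12.8 to 41.0%), an interval below 48.5%. Without Msx2, where 1 of 15 WT peaks was WT-only, 19 of 39 were, 48.7% (33.9 to 63.8%). The share thus moved with single loci in both directions. In the better-ranked 50% of both lists 7 of 32 were WT-only, 21.9% beside 40.3% of all peaks in that part of the WT list. The 95% Wilson interval of this 21.9% also lay below its background of 40.3%. The intervals cover counting error only, and neighbouring peaks are not independent.

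H3K27me3 met H3K4me2 more often at the loci than in the list. Of their 99 Shh-/- H3K4me2 peaks, 33 overlapped an H3K27me3 peak, 33.3% (24.8 to 43.1%), beside 11.4% of the whole H3K4me2 list and 10.4% of peaks in the same score deciles. The ectodermal loci had 4.43 H3K27me3 peaks per 100 kb with a mean width of 1543 bp, the loci of both layers 7.60 per 100 kb and 1304 bp, and Lmx1b 7.24 per 100 kb and 542 bp. WT H3K27ac had 1.58 peaks per 100 kb at the ectodermal loci, 6.99 at the loci of both layers and 11.7 at Lmx1b. In that count 4 of the 10 ectodermal peaks are those of the Sp6 neighbours. At the loci of both layers Msx1 gave 8 peaks, Msx2 15, and Dlx5 and Dlx6 0. These rates were not set beside a rate over all genes, so they compare the layers only.

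In NIH3T3 cells the genes acetylated at a start in the limb had no H3K27ac peak at a start. Lmx1b, Msx1, Dlx5 and Dlx6 had 0 H3K27ac peaks in their windows with purmorphamine and with the control, and Msx2 had 0 and 3, the nearest of them at -29.3 kb from its start. At a start, 2 of the 9 genes had a peak with purmorphamine (En1 and Trp63, beside 53.1% of all genes) and 1 with the control (En1, beside 53.0%). En1 thus had H3K27ac at its start in NIH3T3 cells and none in the limb lists. With the control a single peak, chr1:120600900-120608699, spanned the whole gene at rank 1266 of 90989 and a log2 ratio of 4.88. With purmorphamine the same stretch was called as 2 main peaks, chr1:120600850-120602199 (rank 3015 of 87779, log2 ratio 4.71) and chr1:120602400-120608299 (rank 4711). The covered length of the window was 10.2 kb with the control and 9.05 kb with purmorphamine. The best unshared En1 peaks were weak, with rank 86555 for purmorphamine and 66315 for the control. Sp8 had 1 weak peak shared by both lists past its 3' end, and the 19 and 18 peaks of the Sp6 window lay mostly at its neighbours.

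Trp63 held most of the NIH3T3 peaks of the 8 loci. With purmorphamine its window had 126 H3K27ac peaks covering 64.1 kb, and with the control 54 covering 24.4 kb. The best was chr16:25747150-25749399 in an intron with purmorphamine (rank 6257, log2 ratio 4.38), and the best with the control had rank 9571 and a log2 ratio of 4.07. Most were weak, with a median log2 ratio of 2.68 with purmorphamine and 2.50 with the control, beside 2.79 and 2.70 over the lists. The best purmorphamine-only peak, chr16:25713700-25714349 in an intron, had rank 14880, and the best control-only peak, chr16:25901000-25901349 past the 3' end, had rank 40413. The starts were hardly marked. A single purmorphamine peak of 150 bp lay at the first start (rank 82058) and another within 2 kb before the inner start (rank 42559), while 0 of the control peaks lay at a start.

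The surplus at Trp63 was not confined to the gene. Every 100 kb bin from 300 kb before the first start to 300 kb after it had more purmorphamine than control peaks, from 62 against 25 in the outermost bin upstream to 41 against 25 in the outermost bin downstream. It was widest between 200 and 100 kb before the start, with 52 against 7. From 300 to 400 kb after the start the counts were 2 and 3. Before the start a smaller surplus went on, with 18 and 11 between 400 and 300 kb. The next bins upstream held 7 and 6, then 3 and 1, then 7 and 17. The ratio of 2.33 at the Trp63 window was reached by 17 of 2085 protein-coding windows with at least 20 control peaks (0.815%, neighbouring windows overlapping), and the median ratio was 0.870.

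**Figure D5:**
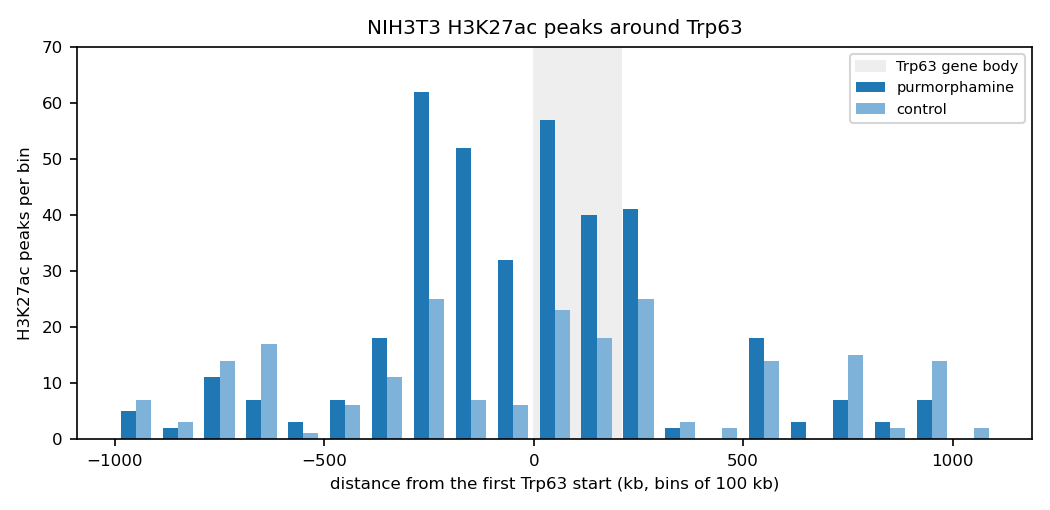
NIH3T3 H3K27ac peaks per 100 kb bin (bars) with purmorphamine and with the control, by distance from the first Trp63 start in kb, with the gene body shaded. The purmorphamine bars are the taller in every bin from -300 to 300 kb, at most 62 peaks against 25.

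The pooled NIH3T3 shares followed Trp63. Of 151 purmorphamine peaks at the 8 loci, 96 had no control counterpart, 63.6% (55.7 to 70.8%) beside 36.5% of the whole list, and of 81 control peaks 20 had no purmorphamine counterpart, 24.7% (16.6 to 35.1%) beside 41.1%. Trp63 gave 90 of the 96 and 7 of the 20. With Trp63 left out the shares were 24.0% of 25 purmorphamine peaks and 48.1% of 27 control peaks, so that locus alone set the direction. Neither list has a replicate of its own, and what differs between the cultures besides purmorphamine was not tested.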

How the data were processed

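The sources name Bowtie2 2.2.5 and limma among the tools and mm10 as the build, and by the study's methods CisGenome 2.1.0 called the peaks against input, 1 list for the pooled replicates of a condition. The study's methods give a minimum depth per sample. The reads of each library and the cutoff of the lists used here were not given in the sources. The study reported peaks at a false discovery rate under 0.05, and some of these lists go beyond it. The highest rates were 0.0673 for Shh-/- H3K27ac, 0.113 and 0.115 for H3K4me2 in WT and Shh-/-, and 0.255 for H3K27me3. For each peak the authors deposited a rank, its position and length, a false discovery rate (a q-value), a score on which the rank is ordered, the largest log2 ratio to input within the peak, and −log10 of the smallest Poisson p-value, which was not used here.

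Peaks on the main chromosomes were used with the GENCODE vM21 basic annotation. Windows were gene bodies with 50 kb on either side, an overlap of 1 bp or more with the other condition's list made a peak shared, and a promoter ran from 2 kb before to 1 kb after any annotated start. Overlap functions were tested on simulated intervals and against bedtools 2.31.1. Counting used Python 3.11.15 and pandas 2.3.3. Shares have 95% Wilson intervals (scipy 1.17.1), which cover counting error only. All 9 genes are reported in every list, with the peaks at starts, the best-ranked peak and the best-ranked unshared H3K27ac peak, and the other gene lists by counts. A gene of the epithelial list is not reported here and is left out of its counts. The members and lists were chosen with earlier results of these data known. The comparison of percentiles at starts, the Trp63 bins and ratio and the choice of printed sequences were added after the data were seen. Alternatives were the overlap, the gap, stricter lists, lists of equal size, other windows and promoters, nearest genes and leaving out each locus.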

Additional observations from a re-analysis of the deposited data

How the results depend on the processing

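No paired analysis was possible because the peak lists used here were each called from both replicates together, and for the same reason no replicate was left out. Values for each library were not analysed here. The 4 counts of genes marked at a start stayed within 1.5 times their value under all 4 alternatives each. Of the 112 alternative values of the 7 shares, 94 stayed within the 95% interval of the reported share, and the 18 others follow. Requiring an overlap of 50% of the peak gave 55.3% Shh-/- only H3K27ac, 49.4% WT-only and 38.4% Shh-/- only H3K4me2 and 77.5% purmorphamine-only peaks. Counting a gap of up to 500 bp as shared gave 24.1% WT-only and 18.4% Shh-/- only H3K27ac, 9.88% WT-only and 6.06% Shh-/- only H3K4me2, 53.6% purmorphamine-only and 14.8% control-only peaks, and 49.5% of H3K4me2 peaks with H3K27me3. These shifts follow from how sharing was defined, and the whole lists moved too. The better-ranked 50% of every list gave 21.9% WT-only and 23.1% Shh-/- only H3K27ac, 12.9% WT-only H3K4me2 and 11.4% control-only peaks. Without Lmx1b the WT-only H3K27ac share was 24.2%, and without Trp63 the purmorphamine-only share was 24.0% and the control-only share 48.1%. The lists give no depth per library, and peaks cut into pieces in one list and merged in the other change counts without changing covered length.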
